A study of Mus musculus with 36 samples.

Results

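The interferon-stimulated antiviral genes are 43 of the 24421 gene symbols in the deposited tables of mouse hippocampal RNA. They were chosen by name from a list of known interferon targets, with earlier results of these data known, and all 43 listed symbols were present. Counts and medians over the list therefore describe it and are no independent test. Polyadenylated RNA was sequenced in 36 libraries, in 6 groups of 6 with 3 females and 3 males each. Treated old mice were C57BL/6 at 18 months of age given nanoligomer, old mice were C57BL/6 at 18 months under the control treatment, and young mice were C57BL/6 at 8 months under the control treatment. Treated APP/PS1 mice were transgenic at 4 months given nanoligomer, APP/PS1 mice were transgenic at 4 months under the control treatment, and littermates were transgene non-carriers of 4 months under the control treatment. APP/PS1 mice carry mutant human amyloid precursor protein and presenilin transgenes. Nanoligomers are synthetic nucleic acid analogues designed to bind chosen sequences. The labels name neither the transgenic line nor the promoters of its transgenes, and they give no control agent and no dose, schedule or target of the nanoligomer. The series title names NF-κB and NLRP3. The labels do not say whether libraries of a group came from separate animals, so p-values measure only the spread between these libraries, which may be technical.

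Interferons are secreted when sensors such as RIG-I, MDA5 or cGAS meet foreign or misplaced nucleic acid. Type I interferon binds a receptor whose kinases phosphorylate STAT2 and other factors, and these join IRF9 to bind the interferon-stimulated response element in the promoters of target genes. The products of these genes sense viral RNA, block translation and viral entry, degrade RNA, or tag proteins with the ubiquitin-like ISG15. In brain, microglia, astrocytes, endothelium and neurons can all express them.

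The promoters of 6 members are shown because they carry the binding element through which interferon is known to act on these genes. A RefSeq promoter (GRCm38.p6, 250 bases before to 50 after the start) was matched by symbol for 32 of the 43 members. The element was searched on both strands as GAAANNGAAA, where matches may overlap each other. It was present in 14 of the 32 members' windows (43.75%), against 1079 of 27025 windows of all genes (3.99%). The 14 were Bst2, Ddx58, Eif2ak2, Ifih1, Ifit1, Ifit3, Ifit3b, Ifitm3, Isg15, Oas1a, Oas3, Rsad2, Stat2 and Trim30a. The 250 bases before the start follow, 5′ to 3′ on the strand of the gene, with matches to the element or its reverse complement in capitals. Isg15 lies at chr4:156200819-156201068 (minus strand), Ifit1 at chr19:34640639-34640888 (plus), Ifit3 at chr19:34583279-34583528 (plus), Ifit3b at chr19:34607707-34607956 (plus), Rsad2 at chr12:26456453-26456702 (minus) and Stat2 at chr10:128270248-128270497 (plus).
Isg15: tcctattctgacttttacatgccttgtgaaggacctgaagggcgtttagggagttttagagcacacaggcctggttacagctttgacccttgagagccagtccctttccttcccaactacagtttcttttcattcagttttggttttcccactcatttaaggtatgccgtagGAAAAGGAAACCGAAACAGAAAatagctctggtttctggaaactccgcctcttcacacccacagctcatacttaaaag
Ifit1: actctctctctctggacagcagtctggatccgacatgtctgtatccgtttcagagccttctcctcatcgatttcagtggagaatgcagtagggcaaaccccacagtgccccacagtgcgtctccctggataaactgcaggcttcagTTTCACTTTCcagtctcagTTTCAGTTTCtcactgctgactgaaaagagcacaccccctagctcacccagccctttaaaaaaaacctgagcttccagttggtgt
Ifit3: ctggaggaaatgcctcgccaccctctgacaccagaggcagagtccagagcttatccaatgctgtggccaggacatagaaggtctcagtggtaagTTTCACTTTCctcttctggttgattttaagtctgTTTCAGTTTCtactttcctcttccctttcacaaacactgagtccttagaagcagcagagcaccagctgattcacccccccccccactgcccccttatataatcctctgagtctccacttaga
Ifit3b: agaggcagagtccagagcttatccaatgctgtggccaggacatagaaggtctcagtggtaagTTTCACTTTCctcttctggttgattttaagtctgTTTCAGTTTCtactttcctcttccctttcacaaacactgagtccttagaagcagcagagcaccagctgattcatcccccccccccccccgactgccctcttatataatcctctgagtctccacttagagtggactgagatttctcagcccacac
Rsad2: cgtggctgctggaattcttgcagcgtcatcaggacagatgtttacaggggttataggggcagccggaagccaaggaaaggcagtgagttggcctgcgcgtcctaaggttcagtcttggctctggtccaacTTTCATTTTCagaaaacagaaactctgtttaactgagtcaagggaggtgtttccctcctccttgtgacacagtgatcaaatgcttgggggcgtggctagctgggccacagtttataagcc
Stat2: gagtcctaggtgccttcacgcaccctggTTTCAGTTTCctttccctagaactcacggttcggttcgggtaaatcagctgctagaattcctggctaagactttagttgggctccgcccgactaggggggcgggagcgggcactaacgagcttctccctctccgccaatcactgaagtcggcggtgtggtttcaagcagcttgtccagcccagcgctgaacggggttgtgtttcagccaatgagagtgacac

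Isg15 held 3 overlapping matches in a single run from −78 to −57 relative to its start, and each of the 3 Ifit promoters held 2 separate matches. In Ifit1 the 2 matches began at −104 and −85, in Ifit3 at −156 and −122, and in Ifit3b at −188 and −154. Rsad2 had 1 match beginning at −120, and that of Stat2, at −222, was the farthest from a start among the 6. The gamma-activated site of interferon-gamma signalling, TTCNNNGAA, was found in 6 of the 32 windows (18.75%), against 9.55% of all windows. A motif of NF-κB was found in 4 (12.5%), against 9.55% of all windows. A match describes the letters only.

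In this tissue the members spanned about 3 orders of magnitude in level per length, given as the median over 35 libraries of recovered reads per M reads (CPM) divided by exon length in kilobases. The highest level was that of Ifi27, a small hydrophobic membrane protein, at 13.3 CPM per kb. Ifitm3, which blocks virus entry at endosomes, had 8.90, the secreted glycoprotein gene Lgals3bp 7.70 and Stat2 6.66 CPM per kb. The transcription factor Irf7 had 0.696 and Isg15 2.25 CPM per kb. The lowest levels were those of the dynamin-like GTPase Mx1 (0.0647), the Z-form nucleic acid sensor Zbp1 (0.0547) and the oligoadenylate synthetase Oas3 (0.0132 CPM per kb). Some reads could be shared between members or neighbours. The coding sequences of Ifit3 and Ifit3b, with starts 24439 bases apart in the Ifit cluster of chromosome 19, were identical over 99.1% of 1212 bases, so their split is uncertain. Mx1 and Mx2 were 73.5% identical. Irf7 overlaps Phrf1, Rtp4 overlaps Masp1 and Parp9 overlaps its partner Dtx3l on opposite strands. On the same strand, Irf9 overlaps Rnf31 and Uba7 overlaps the predicted protein-coding gene Gm20661. Dhx58, Sp100, Ifi35, Oas2, Eif2ak2, Slfn2, Usp18, Herc6, Parp14 and Trim30a overlap predicted, antisense or small RNA genes. Whether the counting used strand is not stated, so the values of these genes could include reads of a neighbour. For overlaps on the same strand, as in Irf9 and Uba7, a strand setting would not separate the reads.

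Libraries held 27.6 to 46.3 M reads in 17358 to 19284 genes, apart from treated APP/PS1 female 3 with 0.913 M reads in 9509 genes, which was left out, so 35 libraries were used and treated APP/PS1 had 5. Markers of hippocampal neurons were present in every library used. Another 2 libraries stood apart for these genes. APP/PS1 female 3 was the highest of its group for 40 of 43 members, with a median of 2.86-fold over the median of its group mates. Old female 2 was the highest of its group for 31 members, with a median of 1.97-fold. Conversely, old female 1 was the lowest of its group for 25 members.

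Summed over the 43 members, levels ranged over 230.4 to 329 CPM with a median of 269.7 in treated old hippocampi, 258 to 624 with a median of 359.8 in old, and 222 to 263 with a median of 251 in young hippocampi. They ranged over 188 to 230.3 CPM with a median of 215 in treated APP/PS1, 209 to 495 with a median of 229 in APP/PS1, and 220.0 to 239 with a median of 235 in littermate hippocampi. The old group was therefore the most spread of the C57BL/6 groups, and only its lowest library, female 1, lay within the young range. In APP/PS1 hippocampi a single library, female 3, stood above 243 CPM.

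**Figure D1:**
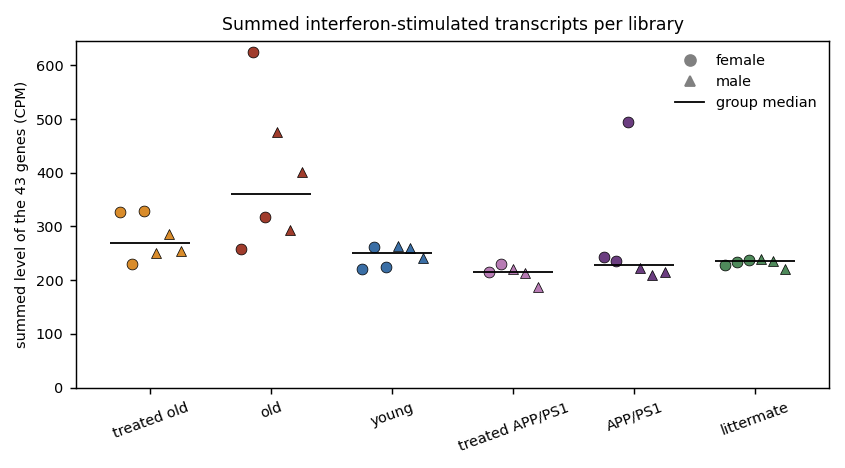
Summed level of the 43 interferon-stimulated genes (CPM, vertical axis from 0) in each of 35 libraries by group, with circles for females, triangles for males and lines for group medians. Old female 2 at 624 CPM and APP/PS1 female 3 at 495 CPM stand above the rest of their groups.

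**Figure D2:**
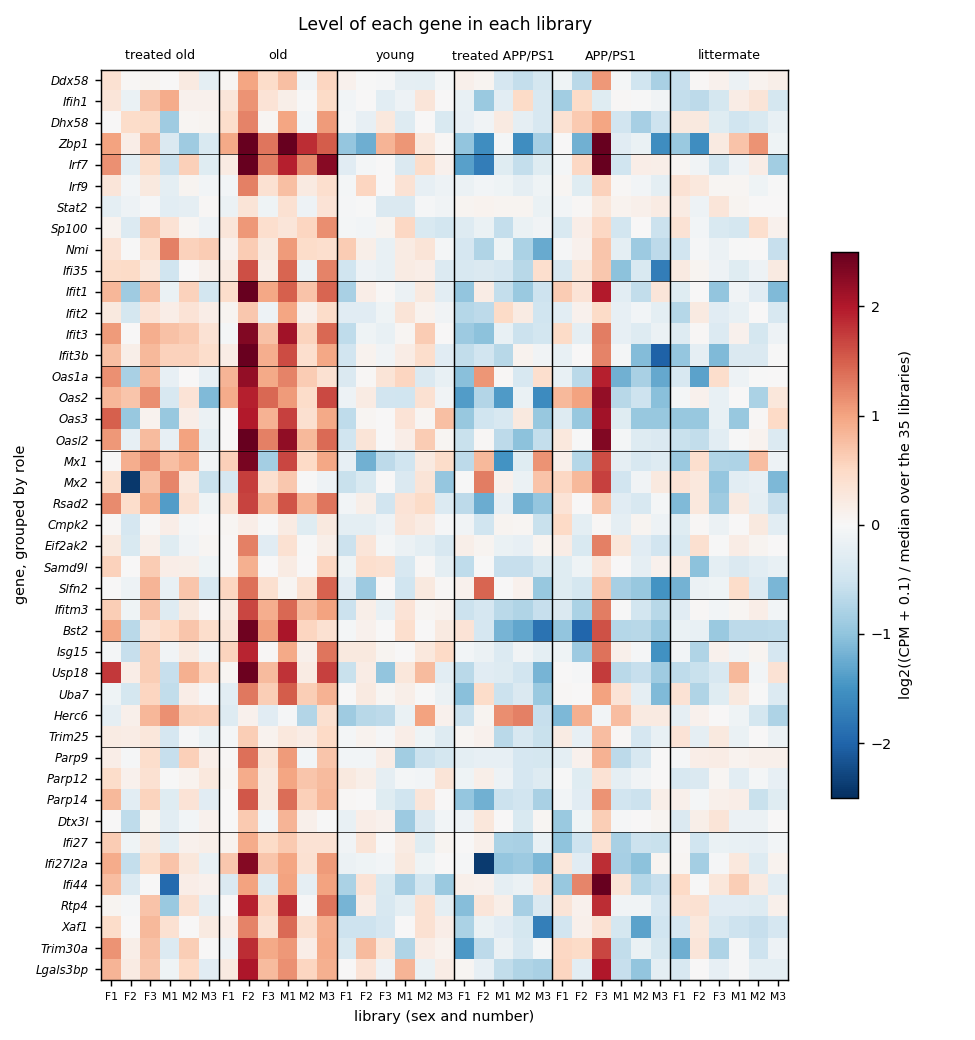
Each member (rows, grouped by role) in each library (columns, by group): the colour is log2 of CPM plus 0.1 relative to the member's median over 35 libraries. Most members are highest in the old group, unevenly between its libraries, and APP/PS1 female 3 is the single column of high values in the transgenic groups.

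Old hippocampi were compared with young ones to ask how these genes stand after aging. All 42 members tested had a higher estimate in old hippocampi (48.6% of all 16626 genes did), and the median log2 fold change was 0.84, against −0.004 over all genes tested. Oas3 was under the filter (a mean of at least 10 normalized counts). No single member passed limma's test at an adjusted p under 0.05, where 0.0301% of genes were called higher. edgeR called 0 members (0.0301% of genes higher) and DESeq2 called 13 higher (0.589% of genes). The 13 were Bst2, Ifi27l2a, Ifit1, Ifit3, Ifit3b, Ifitm3, Irf7, Oas2, Parp9, Rsad2, Rtp4, Xaf1 and Zbp1. At an unadjusted limma p under 0.05, 34 of 42 members were higher (3.37% of genes) and 0 lower (2.77% of genes). The spread between old libraries was large: in 3 members (0.403% of genes higher in this way) every old library lay above every young one, namely Oas2, Ifit1 and Ifi27l2a. In whole tissue, more cells of a type and more RNA per cell cannot be told apart.

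The oligoadenylate synthetases, which make the messenger that activates RNase L, had the largest median of the roles at 1.41 over 3 tested genes. Oas2 ranged over 56.6 to 159 normalized counts with a median of 99.4 in old hippocampi, against 24.7 to 53.0 with a median of 35.9 in young ones. These ranges did not overlap, and the log2 fold change was 1.44 ± 0.28 (SE, n = 6 each; limma adjusted p = 0.202). The IFIT proteins, which bind viral RNA caps and ends, had a median of 1.19, from 0.44 for Ifit2 to 1.47 for Ifit1. Ifit1 ranged over 123 to 601 normalized counts with a median of 217 in old hippocampi, against 49.95 to 111 with a median of 83.9 in young ones. Its log2 fold change was 1.47 ± 0.34, with a limma adjusted p of 0.313. All 6 old libraries lay above the young range, and old female 2 alone gave the top value.

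The membrane restriction factors Bst2 (tetherin, which holds budding virions at the cell surface) and Ifitm3 both had 1.04. Ifitm3 ranged over 284 to 769 normalized counts with a median of 478 in old hippocampi, against 168 to 289 with a median of 258 in young ones. All but 1 old library exceeded the young range, and the log2 fold change was 1.04 ± 0.21 (limma adjusted p = 0.202). Among the Mx, viperin and kinase effectors the median was 0.77, from 0.10 for the mitochondrial nucleotide kinase Cmpk2 to 1.46 for Mx1. Rsad2 (viperin, which makes a chain-terminating nucleotide) ranged over 93.8 to 236 normalized counts with a median of 161 in old hippocampi, against 49.8 to 103 with a median of 73.3 in young ones. Its log2 fold change was 1.14 ± 0.24 (limma adjusted p = 0.239), while that of Cmpk2, which starts 12752 bases away on the other strand, was 0.10 ± 0.11. Thus these neighbours, which are often induced together, had unlike estimates here.

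Sensors had a median log2 fold change of 0.66, from 0.44 for Ifih1 (MDA5) to 2.59 for Zbp1. Zbp1 ranged over 18.8 to 151 normalized counts with a median of 34.6 in old hippocampi, against 1 to 20.1 with a median of 9.21 in young ones. Its estimate of 2.59 ± 0.65 was the largest of all members (limma adjusted p = 0.346), at counts where single reads weigh more. Transcription and signalling factors had a median of 0.57. Irf7, which amplifies the type I response, ranged over 122 to 675 normalized counts with a median of 341 in old hippocampi, against 75.8 to 152 with a median of 104 in young ones. All but 1 old library lay above the young range, and the log2 fold change was 1.65 ± 0.35 (limma adjusted p = 0.239). Without old female 1, the lowest old library, Irf7 passed limma's test at 1.93 (adjusted p = 0.0306), where 0.0661% of genes were called in either direction. That library was the lowest of its group for 25 of 43 members, so leaving it out tends to raise their old mean. No other of the 12 fits that each left out 1 library called a member. Stat2, an abundant signalling factor of the type I receptor, ranged over 1442 to 2062 normalized counts with a median of 1732 in old hippocampi, against 1162 to 1610.4 with a median of 1534 in young ones. Its log2 fold change was 0.27 ± 0.12 (limma adjusted p = 0.810), the smallest of the 6 factors.

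Genes of ISG15 conjugation had a median of 0.63, from 0.09 for the ligase Herc6 to 1.35 for Usp18, the protease that removes ISG15. Isg15 itself ranged over 70.3 to 262 normalized counts with a median of 119 in old hippocampi, against 64.0 to 98.4 with a median of 81.9 in young ones. The groups overlapped, and its log2 fold change was 0.63 ± 0.30 (limma adjusted p = 0.820), or 0.38 without old female 2. The poly(ADP-ribose) polymerase family members Parp9, Parp12 and Parp14 with the ubiquitin ligase Dtx3l had a median of 0.72, from 0.49 for Dtx3l to 0.90 for Parp9. The other induced genes had a median of 0.93, from 0.46 for Ifi27 to 1.24 for Rtp4. Xaf1, a partner of the apoptosis inhibitor XIAP, ranged over 206 to 494 normalized counts with a median of 300.3 in old hippocampi, against 126 to 249.5 with a median of 155 in young ones. Its log2 fold change was 0.93 ± 0.20 (limma adjusted p = 0.240).

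The old female that stood apart moved these values. Without old female 2, 41 of 42 members kept a higher estimate, the median was 0.66 and 28 members were higher at an unadjusted limma p under 0.05 (2.55% of genes). All 10 of the microglial markers also had a higher estimate in old hippocampi. Their median was 0.25. Of the 10, 5 were higher at an unadjusted limma p under 0.05 (3.37% of genes). Limma called 0 (0.0301% of genes higher) and DESeq2 called 1 (0.589% of genes higher). Their summed level ranged over 387 to 525 CPM with a median of 429.7 in old hippocampi, against 340.4 to 392 with a median of 373 in young ones, and the highest was old female 2. Of 5 tested markers of plasmacytoid dendritic cells and monocytes (8 listed, each at 0 reads in at least 1 library) 4 had a higher estimate, with a median of 1.12 at a summed level of 1.81 to 12.5 CPM in old and 0.677 to 13.0 CPM in young hippocampi. Hippocampal neuron markers were higher in estimate for 9 of 9 genes (median 0.27) and oligodendrocyte markers for 7 of 7 (median 0.19). Blood markers were higher for 5 of 5 (median 0.21), astrocyte markers for 7 of 8 (0.07) and endothelial markers for 6 of 8 (0.06). Markers of choroid plexus, a neighbouring tissue, were lower in estimate for 10 of 10 genes (median −2.04), at a summed level of 23.6 to 245.5 CPM in old and 13.5 to 4172 CPM in young hippocampi. Ependymal markers were lower for 8 of 8 (median −0.82) and meningeal fibroblast markers for 5 of 8 (−0.12). The part of these cells in the result was not tested.

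**Figure D3:**
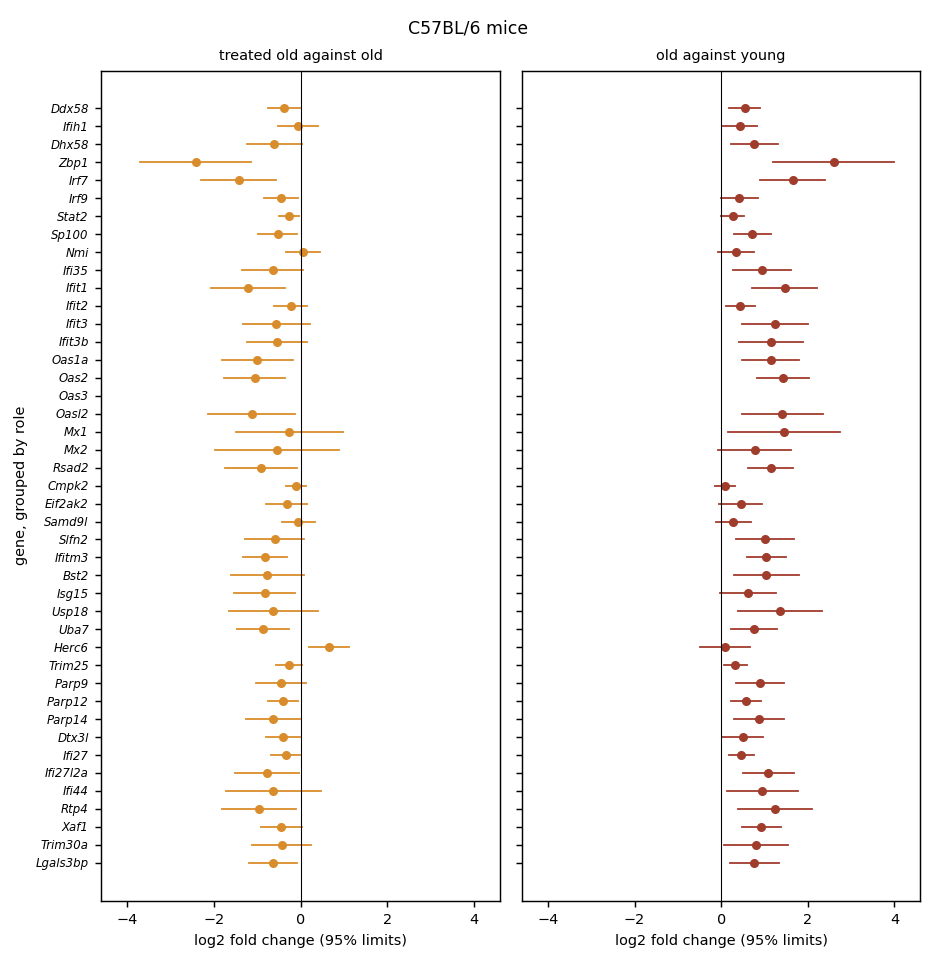
Log2 fold change with 95% limits (horizontal axis) of each tested member (vertical axis, grouped by role): left, treated old against old; right, old against young. Right of zero lie all 42 estimates of old against young, and left of zero lie 40 of 42 estimates of treated old against old, which share the old libraries.

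Treated old hippocampi were compared with old ones to ask how these genes stand after nanoligomer treatment. Of 42 members tested, 40 had a lower estimate in treated old hippocampi (51% of 16517 genes did), and the median log2 fold change was −0.56, against −0.003 over all genes. None passed limma's test (smallest limma adjusted p = 0.678), and limma and edgeR each called 0% of genes lower. DESeq2 called Zbp1 lower (−2.88, DESeq2 adjusted p = 0.0338) with 0.00605% of genes lower. At an unadjusted limma p under 0.05, 21 members were lower (3.6% of genes) and 1 was higher (3.62% of genes). In 0 members did the groups fail to overlap (0.133% of genes lower in this way). The same 6 old libraries serve in this comparison and in that of old with young mice, so a high old library weighs on both.

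Zbp1 ranged over 2.21 to 18.5 normalized counts with a median of 6.71 in treated old hippocampi, against 17.6 to 142 with a median of 32.3 in old ones. All but 1 treated library lay below the old range, and the log2 fold change was −2.43 ± 0.59 (SE, n = 6 each; limma adjusted p = 0.678). The other sensors had −0.07 for Ifih1, −0.38 for Ddx58 (RIG-I) and −0.61 for Dhx58 (LGP2). Irf7 ranged over 67.6 to 224 normalized counts with a median of 108 in treated old hippocampi, against 114 to 630.3 with a median of 319 in old ones, and its log2 fold change was −1.43 ± 0.41. Only 3 of 6 treated libraries lay below the old range of Irf7. Stat2 ranged over 1248 to 1538 normalized counts with a median of 1317 in treated old hippocampi, against 1349 to 1926 with a median of 1617 in old ones, a log2 fold change of −0.26 ± 0.11. Nmi, an adaptor of the same role, had an estimate of 0.05 ± 0.18 (limma adjusted p = 0.955).

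The 3 tested oligoadenylate synthetases lay close together, between −1.13 for Oasl2 and −0.999 for Oas1a. Oas2 ranged over 15.2 to 83.2 normalized counts with a median of 54.4 in treated old hippocampi, against 52.9 to 148 with a median of 92.8 in old ones, a log2 fold change of −1.06 ± 0.33. The IFIT family had a median of −0.56, from −1.21 for Ifit1 to −0.23 for Ifit2. Ifitm3 ranged over 181 to 359.7 normalized counts with a median of 251 in treated old hippocampi, against 266 to 718 with a median of 447 in old ones, a log2 fold change of −0.83 ± 0.24. For both Oas2 and Ifitm3, 3 of 6 treated libraries lay below every old library. Effectors had a median of −0.32, from −0.91 for Rsad2 to −0.05 for Samd9l, a repressor of translation.

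The ISG15 system was divided. Uba7, the enzyme that activates ISG15, ranged over 99.0 to 215 normalized counts with a median of 147 in treated old hippocampi, against 126 to 435 with a median of 261 in old ones, a log2 fold change of −0.87 ± 0.28. Isg15 ranged over 41.8 to 96.6 normalized counts with a median of 62.0 in treated old hippocampi, against 65.6 to 245 with a median of 111 in old ones, and its log2 fold change was −0.83 ± 0.32. Herc6, which in mice joins ISG15 to its targets, had an estimate in the other direction. It ranged over 299 to 777 normalized counts with a median of 539 in treated old hippocampi, against 213 to 463 with a median of 314 in old ones, and its log2 fold change was 0.66 ± 0.21. Herc6 was thus the only member with an unadjusted limma p under 0.05 in the higher direction. The polymerases and Dtx3l had a median of −0.43, from −0.64 for Parp14 to −0.40 for Dtx3l, and the other induced genes a median of −0.63, from −0.97 for Rtp4 to −0.35 for Ifi27.

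These counts moved with single libraries, 3 old and 2 treated. Without old female 2 the median was −0.35 and 6 members were lower at an unadjusted limma p under 0.05 (2.51% of genes). Without old female 1 they were −0.70 and 28 members (4.01% of genes). Leaving out treated old female 2, old male 1 or treated old male 1 gave 11 members (3.62% of genes), 10 members (2.59%) and 10 members (2.74%). Of the microglial markers 7 of 10 had a higher estimate in treated old hippocampi (median 0.05), with summed levels of 373 to 455 CPM in treated old and 387 to 525 CPM in old ones. Hippocampal neuron markers were lower in estimate for 8 of 9 genes (median −0.53), at 329.6 to 956 CPM in treated old and 355 to 1059 CPM in old hippocampi. Meningeal fibroblast markers were lower in estimate for 8 of 8 genes (median −0.46), at 64.7 to 165 CPM in treated old and 145 to 170.0 CPM in old hippocampi. Oligodendrocyte markers were lower for 7 of 7 (median −0.21), at 3554 to 7562 CPM in treated old and 5239 to 7765 CPM in old hippocampi, and endothelial markers for 7 of 8 (median −0.14), at 212 to 301 CPM in treated old and 230.3 to 359 CPM in old ones. The part of these cells in the result was not tested.

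**Figure D4:**
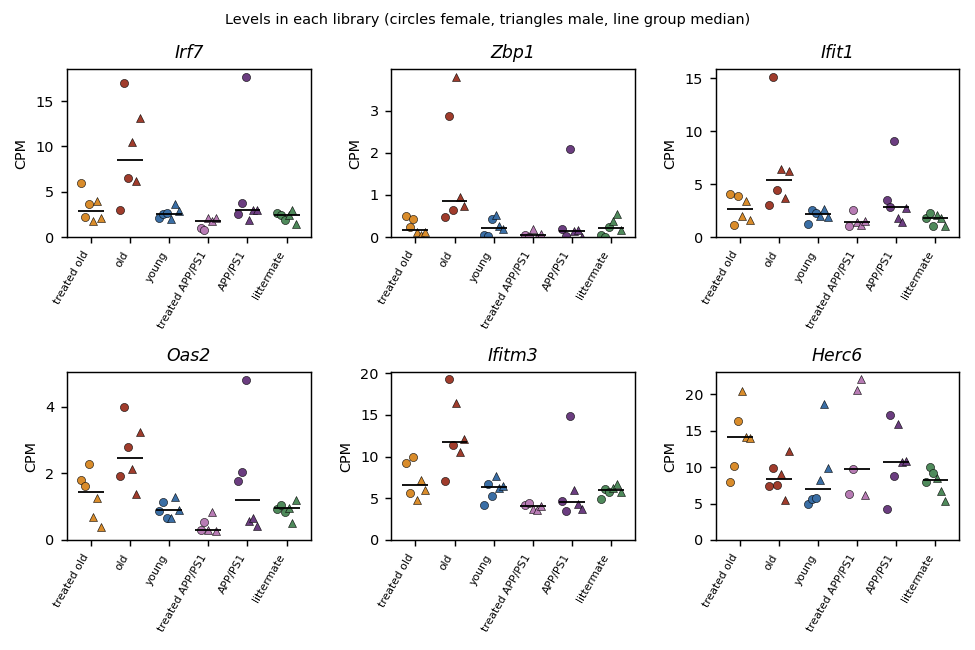
CPM (vertical axes from 0) of Irf7, Zbp1, Ifit1, Oas2, Ifitm3 and Herc6 in each of 35 libraries by group, with circles for females, triangles for males and lines for medians. Irf7, Zbp1, Ifit1, Oas2 and Ifitm3 have their highest group median in old hippocampi, while Herc6 has its highest in treated old hippocampi.

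APP/PS1 hippocampi were compared with littermate ones to ask how these genes stand in transgene carriers at 4 months. By limma the members' median log2 fold change stood close to that of all genes, at 0.08 against 0.001. Of 41 tested, 28 had a higher estimate in APP/PS1 hippocampi (50.3% of 16475 genes). By edgeR and by DESeq2, 34 of 41 members had a higher estimate, with a median of 0.19 by each. The medians over all genes were 0.009 and 0.011. Oas3 and Mx1 were under the filter. None was called by limma or edgeR (0.0486% of genes higher by each) or by DESeq2 (0.904% of genes higher). At an unadjusted limma p under 0.05, 2 members were higher (4.72% of genes) and 0 lower (5.46%), and in 0 members did the groups not overlap (0.437% of genes higher in this way).

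Ifit1 ranged over 53.9 to 328 normalized counts with a median of 106 in APP/PS1 hippocampi, against 36.4 to 82.7 with a median of 65.4 in littermates. Its log2 fold change was 0.88 ± 0.35 (SE, n = 6 each; limma adjusted p = 0.409), and 4 of 6 APP/PS1 libraries lay above the littermate range. Mx2, a GTPase annotated as a polymorphic pseudogene in the reference strain, ranged over 19.8 to 99.9 normalized counts with a median of 37.6 in APP/PS1 hippocampi, against 11.1 to 36.1 with a median of 23.8 in littermates. Its log2 fold change was 0.86 ± 0.38 (limma adjusted p = 0.462).

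Irf7 ranged over 68.7 to 637 normalized counts with a median of 111 in APP/PS1 hippocampi, against 51.5 to 109 with a median of 89.7 in littermates, a log2 fold change of 0.74 ± 0.42 (limma adjusted p = 0.590). Trim30a, a restraint on Toll-like receptor signalling, ranged over 51.0 to 256 normalized counts with a median of 89.6 in APP/PS1 hippocampi, against 31.2 to 100.1 with a median of 63.0 in littermates, a log2 fold change of 0.66 ± 0.38 (limma adjusted p = 0.590). The top value of Ifit1, Irf7 and Trim30a was that of APP/PS1 female 3, and without that library the estimates of Irf7 and Trim30a were 0.31 and 0.39. Trim30a was 0.41 without littermate female 1. Isg15 ranged over 19.9 to 162 normalized counts with a median of 58.5 in APP/PS1 hippocampi, against 35.7 to 67.3 with a median of 58.1 in littermates, an estimate of 0.01 ± 0.41. Stat2 ranged over 1301 to 1747 normalized counts with a median of 1599 in APP/PS1 hippocampi, against 1343 to 1772 with a median of 1488 in littermates, an estimate of 0.04 ± 0.09. For Isg15 and Stat2 the 95% limits were −0.89 to 0.90 and −0.15 to 0.23, so Stat2 was bounded far more tightly than Isg15.

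Without APP/PS1 female 3 the direction of the list was not kept: 17 of 40 tested members had a higher and 23 a lower estimate, with a median of −0.10. Then 0 members were higher at an unadjusted limma p under 0.05 (6.22% of genes) and 2 were lower (7.5%). In that fit limma called 1.56% of 16433 genes and 0 members. APP/PS1 female 3 also had the highest summed microglial markers of its group (734 CPM, at least 323 in APP/PS1 hippocampi, against 339 to 400.5 in littermates), and the highest astrocyte markers (8674 CPM, at least 4892 in APP/PS1, against 5948 to 6913 in littermates). Over the groups, microglial markers had a median of 0.17. Meningeal fibroblast markers were lower in estimate for 8 of 8 genes (median −0.98), at 88.2 to 163 CPM in APP/PS1 and 134 to 319 CPM in littermate hippocampi. Hippocampal neuron markers were lower for 8 of 9 (median −0.88), at 403 to 972 CPM in APP/PS1 and 810 to 1035 CPM in littermates. Choroid plexus markers were lower for 10 of 10 (median −1.21), at 18.0 to 60.3 CPM in APP/PS1 and 28.0 to 610 CPM in littermates. Blood markers were lower for 5 of 5 (median −0.46) and ependymal markers for 6 of 7 (median −0.33), while oligodendrocyte markers were higher for 5 of 7 (median 0.02). Of 9 T and NK cell markers 2 were tested, and 2 of 2 were higher in estimate (median 0.97). Their list summed to 2.39 to 29.6 CPM in APP/PS1 and 1.98 to 3.41 CPM in littermates. The part of these cells in the result was not tested.

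**Figure D5:**
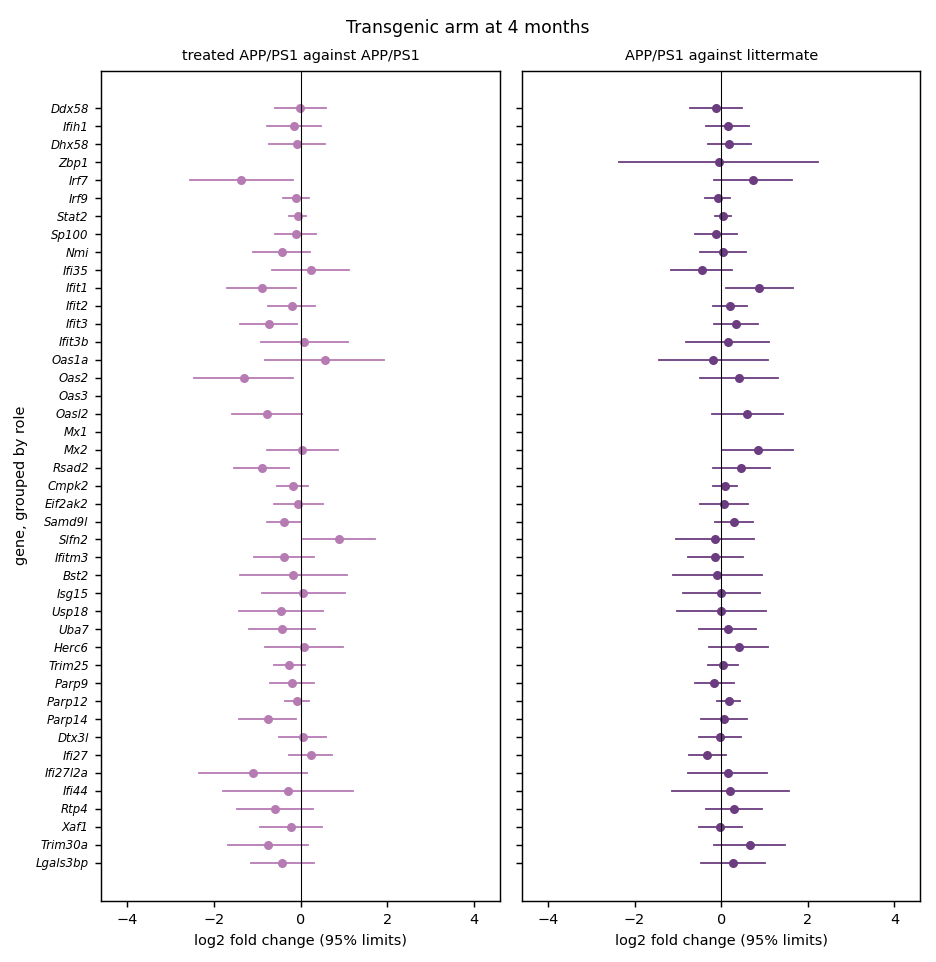
Log2 fold change with 95% limits (horizontal axis) of each tested member (vertical axis, grouped by role): left, treated APP/PS1 against APP/PS1; right, APP/PS1 against littermate. The limits of most members span zero, and members under the filter have no point.

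Treated APP/PS1 hippocampi were compared with APP/PS1 ones, with 5 treated libraries. Of 40 members tested, 31 had a lower estimate in treated APP/PS1 hippocampi (50.6% of 16124 genes did) and 9 a higher one, and the median log2 fold change was −0.21, against −0.002 over all genes. Zbp1, Oas3 and Mx1 were under the filter. None was called by limma or edgeR (0% of genes lower by each) or by DESeq2 (0.0124% of genes lower). At an unadjusted limma p under 0.05, 6 members were lower (1.51% of genes) and 1 was higher (1.45%), and in 0 members did the groups not overlap (0.155% of genes lower in this way). The smallest limma adjusted p was 0.997. These values come from a table scaled apart from the one of APP/PS1 and littermate mice, so counts of the same APP/PS1 library differ between them.

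Rsad2 had 30.0 and 18.6 normalized counts in the treated females and 43.2, 20.8 and 23.8 in the treated males, against 37.4 to 78.2 with a median of 48.6 in APP/PS1 hippocampi. All but 1 treated library lay below the APP/PS1 range, and the log2 fold change was −0.90 ± 0.29 (SE, n = 5 and 6). Parp14 had 60.7 and 49.8 normalized counts in the treated females and 85.8, 90.0 and 68.3 in the treated males, against 84.0 to 259 with a median of 104 in APP/PS1 hippocampi (−0.77 ± 0.30). Oas2 had 8.48 and 14.7 normalized counts in the treated females and 8.51, 24.5 and 7.32 in the treated males, against 11.7 to 129.5 with a median of 32.0 in APP/PS1 hippocampi (−1.32 ± 0.52). For Parp14 and Oas2, 3 of 5 treated libraries lay below the APP/PS1 range.

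Irf7 had 26.8 and 19.5 normalized counts in the treated females and 60.2, 49.8 and 59.2 in the treated males, against 52.1 to 475 with a median of 83.3 in APP/PS1 hippocampi (−1.37 ± 0.54). Ifit3 had 84.8 and 76.2 normalized counts in the treated females and 148, 117 and 119 in the treated males, against 132 to 390.0 with a median of 146 in APP/PS1 hippocampi (−0.74 ± 0.30). Ifit3b, its near-copy, had 0.08 ± 0.46 in the same fit. Ifit1 had 30.0 and 68.4 normalized counts in the treated females and 41.3, 32.7 and 43.3 in the treated males, against 40.5 to 245 with a median of 79.8 in APP/PS1 hippocampi (−0.90 ± 0.36). In each of these 3 genes the highest APP/PS1 library was female 3. Slfn2, a Schlafen family regulator of lymphocyte quiescence, was the single member higher at an unadjusted limma p under 0.05, with 35.2 and 91.9 normalized counts in the treated females and 34.0, 37.2 and 15.9 in the treated males, against 10.02 to 52.8 with a median of 20.5 in APP/PS1 hippocampi (0.88 ± 0.38). Slfn2 was singled out after its value was seen.

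Isg15 had 44.4 and 41.0 normalized counts in the treated females and 38.0, 46.1 and 39.7 in the treated males, against 15.0 to 121 with a median of 44.0 in APP/PS1 hippocampi (0.06 ± 0.44). Stat2 had 1144 and 1137 normalized counts in the treated females and 1186, 1201 and 987 in the treated males, against 981 to 1303 with a median of 1206 in APP/PS1 hippocampi (−0.07 ± 0.09). For both the treated libraries lay within the APP/PS1 range. Without APP/PS1 female 3 the median over the members was −0.10, with 26 of 40 lower in estimate and 6 lower at an unadjusted limma p under 0.05 (1.49% of genes). Without treated APP/PS1 female 1 that count was 2 (1.9% of genes), and without treated APP/PS1 female 2 it was 3 (0.839%). Microglial markers were lower in estimate in treated APP/PS1 hippocampi for 9 of 10 genes (median −0.17), at 342 to 378 CPM in treated APP/PS1 and 323 to 734 CPM in APP/PS1 hippocampi. Astrocyte markers were lower for 8 of 8 (median −0.15), at 5529 to 6672 CPM in treated APP/PS1 and 4892 to 8674 CPM in APP/PS1 hippocampi. Oligodendrocyte markers were lower for 7 of 7 (median −0.12), at 3892 to 4920 CPM in treated APP/PS1 and 4086 to 5795 CPM in APP/PS1, and endothelial markers for 8 of 8 (median −0.07), at 204 to 278 CPM in treated APP/PS1 and 229.8 to 269 CPM in APP/PS1. Choroid plexus markers had a higher estimate in treated APP/PS1 hippocampi for 10 of 10 genes (median 2.74), at 63.1 to 4044 CPM in treated APP/PS1 and 18.0 to 60.3 CPM in APP/PS1 hippocampi. The part of these cells in the result was not tested.

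Females and males were also fitted apart within each comparison. The sexes differed in 0 members by limma's adjusted p in any of the 4 comparisons (0% of genes in each). In old against young mice the median log2 fold change was 0.70 in females and 0.82 in males. Without old female 2 the female median was 0.41, with 36 of 42 members higher in estimate, and 4 members had the larger estimate in males at an unadjusted limma p under 0.05 (1.83% of genes in that direction). In treated old against old mice the medians were −0.35 in females and −0.64 in males, and 2 members, Parp12 and Rsad2, differed at an unadjusted p under 0.05 (2.45% of genes in that direction). Without old female 2 the female median was −0.02, and 8 members differed at an unadjusted limma p under 0.05 (2.14% of genes in that direction). In APP/PS1 against littermate mice 35 of 41 members had a higher estimate in females (median 0.36) and 9 of 41 in males (median −0.21), and 6 members differed at an unadjusted limma p under 0.05 (2.58% of genes in that direction). The 6 were Ifit3b, Lgals3bp, Oas2, Oasl2, Trim30a and Usp18, and the female median was 0.08 without APP/PS1 female 3. Then 4 members still differed at an unadjusted limma p under 0.05, each with the higher estimate in females (share of genes not given here). In treated APP/PS1 against APP/PS1 mice the medians were −0.49 in females and −0.04 in males, with 7 members differing at an unadjusted limma p under 0.05 (2.34% of genes in that direction). These were Dhx58, Ifit2, Ifit3, Ifit3b, Irf7, Oas2 and Trim30a, and the female median without APP/PS1 female 3 was −0.25. Then 6 members differed at an unadjusted limma p under 0.05, 2 with the higher estimate in females and 4 in males (shares of genes not given here).

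The effect of age was set against that of the transgenes in a joint limma fit, since these comparisons share no library. The effect of age was the higher for 38 of 41 members, with a median difference of 0.68 on the log2 scale, and 0 members were called (0.0429% of genes, both directions). At an unadjusted limma p under 0.05 it was higher for 8 members (5.48% of genes), namely Ifi27, Ifi35, Ifitm3, Parp14, Parp9, Slfn2, Sp100 and Xaf1. Without APP/PS1 female 3 the median difference was 0.93, 26 members had an unadjusted p under 0.05 (7.78% of genes) and 2 were called (0.123% of genes). These were Ifitm3 with a difference of 1.49 (limma adjusted p = 0.0267) and Ifi27 with 0.97 (limma adjusted p = 0.0447). APP/PS1 female 3 was left out after it was seen to be the highest of its group for 40 of 43 members. Leaving it out lowers their APP/PS1 values, so the larger counts and the 2 calls are no independent support. Without old female 2 the median difference was 0.52, with 6 members at an unadjusted p under 0.05 (5.25% of genes) and 0 called. The effects of treatment in old and in APP/PS1 mice, fitted the same way, differed in 0 members by limma's adjusted p (0% of genes), with a median difference of −0.29 and 2 members at an unadjusted limma p under 0.05, Oas1a and Slfn2 (2.31% of genes). That median was −0.48 without APP/PS1 female 3 and −0.09 without old female 2.

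Upstream of these genes, the interferon ligands were nearly unread. Of 12 ligand genes 0 passed the filter. Ifna1, Ifna2, Ifna4, Ifna5 and Ifna13 had 0 reads in 35 of 35 libraries, Ifnb1 had 0 to 2 reads and Ifng 0 to 6 reads. Among the 6 interferon receptor genes the median log2 fold change with age was −0.04. Ifnar1, a chain of the type I receptor, ranged over 1988 to 2214 normalized counts with a median of 2108 in old hippocampi, against 1885 to 2286 with a median of 2196 in young ones.

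Over the 38 tested genes of ligand, receptor, signalling and sensing lists, 0 were called by limma in any comparison. In old against young mice 21 had a higher estimate, 9 were higher (3.37% of genes) and 1 lower (2.77%) at an unadjusted limma p under 0.05, and DESeq2 called 2 (0.589% of genes higher). In treated old against old mice 23 had a lower estimate, with 3 higher (3.62% of genes) and 2 lower (3.6%) at an unadjusted limma p. In APP/PS1 against littermate mice 20 had a higher estimate, with 2 higher (4.72% of genes) and 2 lower (5.46%) at an unadjusted limma p. In treated APP/PS1 against APP/PS1 mice 23 of 37 had a lower estimate, with 0 at an unadjusted limma p under 0.05 (1.45% of genes higher and 1.51% lower).

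Pathway genes named for a small p for age were Tlr3, the endosomal receptor of double-stranded RNA (0.40 ± 0.10; limma adjusted p = 0.343), Ptpn6, a phosphatase that restrains cytokine signalling (0.46 ± 0.12; limma adjusted p = 0.347), the myeloid transcription factor Irf8 (0.54 ± 0.16; limma adjusted p = 0.535) and Tmem173, which encodes STING (0.46 ± 0.15; limma adjusted p = 0.621). In treated old against old mice the estimates were −0.13 ± 0.10 for Tlr3, −0.08 ± 0.11 for Ptpn6, −0.27 ± 0.18 for Irf8 and −0.004 ± 0.17 for Tmem173. Nfkb1, named in the series title by its product, ranged over 566 to 807 normalized counts with a median of 766 in treated old hippocampi, against 722 to 863 with a median of 776 in old ones (−0.09 ± 0.09). Nlrp3, the inflammasome sensor, ranged over 36.2 to 92.7 normalized counts with a median of 58.6 in treated old hippocampi, against 20.6 to 84.6 with a median of 52.0 in old ones (0.16 ± 0.29). In treated APP/PS1 against APP/PS1 mice the estimates were −0.06 ± 0.11 for Nfkb1 and 0.002 ± 0.33 for Nlrp3. These values describe transcript levels alone.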

How the data were processed

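The deposited files are 4 tables of 12 mouse hippocampal libraries each. Per the labels' protocols, polyadenylated RNA was prepared with TruSeq kits and read on an Illumina instrument. STAR, DESeq2 and mm10 appear in the submitters' processing notes, without versions; the counting tool and its strand setting are not stated. The deposited values are a signal, counts that the authors divided by a size factor per library within each table. Whole reads were recovered to within 0.001 reads, and 0 value columns were left out. The name of 1 column is 1 letter off its title, and it went to the sample of that group still without a column. CPM is recovered reads per M recovered reads.

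Depth was 27.6 to 46.3 M reads, apart from treated APP/PS1 female 3 (0.913 M), which was left out. Intervals cover the spread between libraries.

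Within each table limma 3.58.1 (R 4.3.3, trend) was fitted to log2(normalized count + 1) where a gene averaged 10 or more, with terms for sex and for group, so fold changes of low genes are understated. Genes were called at a Benjamini-Hochberg adjusted p under 0.05 over all genes tested. The sex interaction and the difference between effects of tables that share no library were fitted likewise. The fits were tested on simulated counts. edgeR 4.0.16 (quasi-likelihood) and DESeq2 1.42.0 were run on recovered reads. Other alternatives were the filter, pseudocount, TMM scaling, trend, library weights, sex term, replicate block and leaving out each library; counts at an unadjusted p, and the sex and effect differences without APP/PS1 female 3 or old female 2, were chosen after seeing the data.

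The members and lists were chosen with earlier results of these data known. Named in each comparison are the 6 members with the smallest limma p (4 where fewer than 6 have an unadjusted p under 0.05), with Irf7, Isg15 and Stat2 in each, the 4 pathway genes with the smallest limma p for age, and Nfkb1 and Nlrp3. Another gene that the rule names is not reported here. Others were named as the ends of a range, or after their values were seen. The lists of interferon ligands, receptors, signalling and nucleic acid sensing genes, and of cell markers, take part in no test of a set. Gene positions and overlaps come from GENCODE vM21 (GRCm38), promoters from RefSeq (GRCm38.p6).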

Additional observations from a re-analysis of the deposited data

Results flagged for a closer look

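In 8 of 57 groups of values tested among those reported, 1 library lay far from the rest of its group. A rate of about 1 in 20 would hold for independent, normally distributed values. These are untransformed values of members measured in the same libraries and named partly for a small p, so that rate is no yardstick here. In old hippocampi, old female 2 had 601 normalized counts of Ifit1, against at most 257 in the other old libraries. The rest were APP/PS1 female 3. In the table with littermates it had 328 normalized counts of Ifit1 (120.4 at most in the other APP/PS1 libraries), 637 of Irf7 (141), 256 of Trim30a (114) and 162 of Isg15 (69.8). In the table with treated APP/PS1 mice it had 259 normalized counts of Parp14 (136) and 390.0 of Ifit3 (213). Its summed level of the 43 members was 495 CPM, against at most 243 CPM in the other APP/PS1 libraries. Over all 258 combinations of member and group, 43 were set apart in this way, 26 of them by APP/PS1 female 3 and 7 by old female 2. The share over all genes was not counted.

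The library left out for its depth, treated APP/PS1 female 3, held reads that the comparisons do not use. It had reads of 22 members, and 18 of these, each with more than 3 reads, exceeded every littermate library (1 read is worth 1.09 CPM there, and 3 reads 3.28 CPM). 17 of these exceeded every other library too, and 21 members had 0 reads. The share of all genes that exceeded the other libraries was not counted, so these counts cannot be read as particular to the members. Among the sensors it had 401 CPM of Ddx58, 49.3 of Ifih1, 75.5 of Dhx58 and 9.85 of Zbp1. It had 41.6 CPM of Irf9 and 59.1 of Nmi among the factors, and 9.85 of Ifit1, which alone of the 18 was below another library (15.1). Among effectors it had 56.9 CPM of Mx1, 77.7 of Rsad2 and 153 of Eif2ak2. In the ISG15 system it had 23.0 CPM of Isg15, 118 of Usp18 and 72.3 of Herc6, and in the polymerase group 233 of Parp14 and 73.4 of Dtx3l. It further had 305 CPM of Ifi44, 24.1 of Xaf1 and 54.7 of Trim30a. Ifitm3, Irf7, Lgals3bp, Parp12 and Stat2, which are read in every other library, are listed at 0 there. Its values entered no test between groups, and whether its preparation failed was not tested.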

How the results depend on the processing

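Oas3, Mx1 and Zbp1 lay near or under the filter in at least 1 comparison, where values rest on few reads. Of the values that answer a comparison, 268 stayed, 26 moved and 2 changed sign under an alternative. A count stayed where it was within 1.5 times of the reported count. A median stayed where it shifted by less than the SD of the libraries' median deviations over the members. The members' median in treated old against old mice thus counted as staying at −0.32 with library weights, against −0.56 reported. For single genes 662 stayed on their side of the threshold, 9 passed the threshold and 14 changed sign. The cause of these changes was not tested, apart from the libraries named.

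In old against young mice DESeq2 called 13 members (0.589% of genes higher). Limma with library weights called 1, Oas2 (limma adjusted p = 0.0493), with 0.0842% of genes called in either direction. Leaving out 1 library gave 0 to 1, the 1 being Irf7 without old female 1 (0.0661% of genes in either direction). In treated old against old mice DESeq2 called 1 (0.00605% of genes lower). The count lower at an unadjusted p was 9 with library weights (7.16% of genes). With 1 library left out it was 6 (2.51%) to 28 (4.01%). In APP/PS1 against littermate mice the count higher at an unadjusted p was 1 with a mean of at least 50, 1 with library weights, 1 without the sex term and 0 to 4 with 1 library left out. It was 0 without APP/PS1 female 3 (6.22% of genes), and shares beside the other counts of this comparison are not given here. The members' median there was −0.0325 with library weights and −0.10 to 0.19 with 1 library left out, and Isg15 was −0.14 with library weights and −0.32 to 0.29 with 1 left out. In treated APP/PS1 against APP/PS1 mice Isg15 was −0.18 by edgeR, −0.18 by DESeq2, −0.0405 with library weights and −0.24 to 0.34 with 1 left out. The count lower at an unadjusted p there was 2 to 8 with 1 left out, the 2 being without treated APP/PS1 female 1 (1.9% of genes). With treated APP/PS1 female 3 kept that count was 2, the median was −0.68 (also −0.68 over all genes), Rsad2 was 0.0154 and Parp14 0.21. Shares beside the 8 and with that library kept are not given here. In the age against transgene difference 0 members were called without old female 2 and 2 without APP/PS1 female 3 (0.123% of genes), the only libraries left out there. These libraries were picked for their high levels of the members.

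The labels do not say whether same-numbered libraries were paired, and the main fits did not pair them. Their deviations correlated between −0.25 and 0.29, which cannot decide this with at most 3 libraries per sex and group. A replicate block left 0 members called in all 4 comparisons, 34 higher in old mice (3.22% of genes), 10 lower in treated old mice (2.9%) and 0 higher in APP/PS1 mice (4.9%) at an unadjusted p.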
